A study of Mus musculus with 16 samples.

Results

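The histone genes of the mouse were followed in liver RNA read on Illumina BeadChips, 1-colour arrays whose bead-bound probes give a brightness for each transcript. A gene was a member when its annotated symbol began with one of the histone prefixes (H1f, H2ac, H2az, H2bc, H2bu, H3c, H3f or H4c, or the older Hist1, Hist2, Hist3, H2af and H1fx), which gave 59 of 16593 named genes, read by 66 probes. The symbol rule uses no measured value, but the family was picked out with results of these arrays in view, so its counts are descriptions and stand beside the share of all genes that passed the same test. Of the 59 members, 37 had a probe detected (detection p under 0.05 over negative control beads) on at least 4 of 16 arrays and were measured, among 8386 measured genes in all.

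The 16 arrays came from 16 male C57BL/6 mice, 4 in each of 4 groups that the labels call biological replicates. Garlic oil mice received the Lieber-DeCarli ethanol liquid diet and 50 mg/kg of garlic oil. DADS mice were fed ethanol likewise and were given diallyl disulfide, a sulfur compound found in garlic, at 15 mg/kg. Alcohol mice received the ethanol diet without either agent, a model of alcoholic fatty liver, and control mice were pair-fed the Lieber-DeCarli diet without ethanol. All 4 groups were gavaged daily for 4 weeks with 0.1 ml of olive oil, which carried the agents, so control mice were not free of gavage or oil. The comparisons ask how the ethanol diet changed the histone genes and how each garlic preparation changed them in ethanol-fed mice.

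Histones are the proteins around which nuclear DNA is wound: H2A, H2B, H3 and H4 form the core of the nucleosome, and H1 binds the linker DNA between cores. Replication-dependent histones come from gene clusters that are transcribed in S phase, and their messenger RNAs end in a stem-loop and usually carry no poly(A) tail. Some cluster genes also make polyadenylated transcripts in cells that have stopped dividing. Replacement histones such as H2A.Z and H3.3 come from single genes outside the clusters and are made throughout the cell cycle as polyadenylated messages. Adult hepatocytes rarely divide. The sources do not name the primer that made the cDNA, so what share of each transcript form the arrays read is unknown.

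By name, 53 members belonged to the histone clusters (called replication-dependent here) and 6 did not. Of the cluster genes 34 were measured, 27 of them on chromosome 13 and 7 on chromosome 3, and of the other 6 the replacement genes H2az1, H3f3a and H3f3b. All 10 H4 genes were measured, against 10 of 14 H2A genes, 8 of 14 H2B genes, 5 of 9 H3 genes and 1 of 6 H1 genes of the clusters. The 22 members that were not measured were 19 cluster genes and H1f7, H1f8 and H1f10, and 19 of the 22 had no probe detected on any array. H2ac4 and H2bc8 were each detected on 1 DADS array and H2bc3 on 1 alcohol array. The 27 probes that were left out had raw signals between 58.3 and 133.2, near the negative controls. Coding sequences of cluster genes are nearly identical within a family and probe sequences were not given, so a probe named for 1 cluster gene may also read its neighbours and each gene's value is uncertain in that respect.

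Promoters of the members that the results turn on are shown so that the letters next to the genes can be read beside their values. Windows ran from 250 bases before to 50 bases after the annotated start (RefSeq, GRCm38.p6) and were found for 34 of the 37 measured members. Capitals mark matches on either strand to the CCAAT box (CCAAT), the TATA box (TATAAA) and 2 forms of the E2F site (TTCGCGC or TTGGCGC). The first 3 windows are H2ac18 (chr3:96245247-96245546, plus strand), which was lower in alcohol livers, H2ac15 (chr13:21753863-21754162, minus strand), which was lower with both garlic preparations, and H1f2 (chr13:23738557-23738856, plus strand), which was lower with garlic oil. The others are H4c8 (chr13:23530794-23531093, plus strand), which holds no match, and the replacement gene H2az1 (chr3:137864237-137864536, plus strand), whose E2F match overlaps a CCAAT box.
H2ac18: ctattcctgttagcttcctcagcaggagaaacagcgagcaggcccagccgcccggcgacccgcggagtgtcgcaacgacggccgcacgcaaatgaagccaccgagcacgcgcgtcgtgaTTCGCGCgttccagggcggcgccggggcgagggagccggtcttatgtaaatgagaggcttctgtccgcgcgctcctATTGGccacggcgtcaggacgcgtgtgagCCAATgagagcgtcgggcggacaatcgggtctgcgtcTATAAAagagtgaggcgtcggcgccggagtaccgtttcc
H2ac15: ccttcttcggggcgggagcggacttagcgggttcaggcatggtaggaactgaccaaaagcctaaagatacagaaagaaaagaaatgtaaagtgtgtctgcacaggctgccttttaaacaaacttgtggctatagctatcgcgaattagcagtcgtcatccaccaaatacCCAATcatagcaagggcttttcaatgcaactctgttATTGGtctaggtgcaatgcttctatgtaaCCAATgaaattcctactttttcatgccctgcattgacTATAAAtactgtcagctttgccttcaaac
H1f2: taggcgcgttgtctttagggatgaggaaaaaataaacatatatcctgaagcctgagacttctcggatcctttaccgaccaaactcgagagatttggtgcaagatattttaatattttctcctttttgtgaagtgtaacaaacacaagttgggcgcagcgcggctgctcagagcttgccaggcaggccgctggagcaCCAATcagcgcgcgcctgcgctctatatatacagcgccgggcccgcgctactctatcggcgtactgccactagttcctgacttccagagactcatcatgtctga
H4c8: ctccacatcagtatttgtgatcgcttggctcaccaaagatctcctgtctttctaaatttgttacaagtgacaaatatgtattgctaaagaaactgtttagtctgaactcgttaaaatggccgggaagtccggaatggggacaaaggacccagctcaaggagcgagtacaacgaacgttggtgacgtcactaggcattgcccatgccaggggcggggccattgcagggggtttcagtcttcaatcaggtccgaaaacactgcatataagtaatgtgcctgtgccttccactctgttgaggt
H2az1: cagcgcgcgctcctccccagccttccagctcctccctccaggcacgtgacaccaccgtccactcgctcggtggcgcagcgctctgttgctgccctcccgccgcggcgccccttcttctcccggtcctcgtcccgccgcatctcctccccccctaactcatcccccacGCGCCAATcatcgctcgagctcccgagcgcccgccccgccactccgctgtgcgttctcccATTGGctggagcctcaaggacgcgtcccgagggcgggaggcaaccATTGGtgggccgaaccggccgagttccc

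H2ac15 held 3 CCAAT boxes and 1 TATA box and H2ac18 held 2 CCAAT boxes, 1 TATA box and 1 E2F match. In both the TATA box lay after the annotated start, 21 bases in H2ac15 and 11 bases in H2ac18. Over the 31 measured cluster genes with a window, 77.4% held CCAAT, against 37.4% of all 32851 promoter windows of the same length. TATAAA stood in 58.1% of them against 13.6% of all windows, an E2F form in 29.0% against 3.89%, and the octamer core TTTGCAT, the core of the H2B promoter element, in 22.6% against 4.63%. The families differed in these letters: all 10 H2A and all 7 H2B windows held CCAAT, against 2 of 9 H4 windows, and an E2F form was found in 6 of 10 H2A, 3 of 7 H2B and 0 of 9 H4 windows. These matches are descriptions of letters and not binding sites.

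Intensities were background-corrected, quantile-normalized and set on the log2 scale, the brightest passing probe stood for its gene, and all groups were compared in 1 limma fit. A gene counted as changed when its Benjamini-Hochberg adjusted p over all 8386 genes was under 0.05. Levels of different probes are not comparable, so levels are compared between groups within a gene only. DADS and garlic oil arrays lay on 1 chip and alcohol and control arrays on the other, so in every comparison between these pairs chip and group cannot be told apart, and within a chip group and position cannot. Arrays detected between 10631 and 11526 of 25697 probes, and replicates correlated at between 0.973 and 0.993. All 9 hepatocyte markers were measured, with array medians between 12.7 and 13.98. One array stood apart, alcohol replicate 1, where the median of the 5 measured pancreatic acinar markers was 15.71, against at most 6.58 on every other array. Counts of calls and the cluster medians are therefore also given without it, and calls of named genes that were lost without it are named. Counts of groups that do not overlap were made with all arrays.

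Under the ethanol diet 5 cluster histone genes fell and 0 rose, led by H2A genes of the chromosome 3 cluster. The 3 H2A genes measured there, H2ac18, H2ac20 and H2ac21 (formerly Hist2h2aa1, Hist2h2ac and Hist2h2ab), all fell, by 0.90, 0.70 and 0.95 on the log2 scale. The other 2 were the H4 genes H4c8 and H4c11 of chromosome 13 (formerly Hist1h4h and Hist1h4j). The 5 of 37 measured members compare with 3.58% of all measured genes that changed in either direction between alcohol and control, 1.63% that fell and 1.94% that rose. At an unadjusted p under 0.05, 2 members were higher and 8 lower in limma. In bulk liver, fewer cells of a type and less RNA per cell cannot be told apart.

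H2ac18 had 9.92, 10.47, 9.98 and 9.98 in alcohol livers, against 11.10, 10.84, 11.00 and 11.02 in control livers (log2 intensity). Every alcohol mouse was below every control mouse, and the mean difference was -0.90 ± 0.16 (SE), 1.87-fold lower in alcohol (adjusted p = 0.00566, limma). H4c8 had 9.57, 10.07, 9.60 and 10.03 in alcohol livers, against 10.82, 10.63, 10.65 and 10.70 in control livers. The groups again did not overlap and the difference was -0.88 ± 0.16 (SE), with an adjusted p of 0.00476 in limma. H2ac20 had 12.13, 12.87, 12.40 and 12.27 in alcohol livers, against 13.27, 12.97, 13.10 and 13.14 in control livers (adjusted p = 0.0367, limma). H2ac21 had between 7.10 and 7.74 in alcohol livers and between 8.11 and 8.67 in control livers (adjusted p = 0.0157, limma), also without overlap. H4c11 averaged 8.34 in alcohol livers and 8.85 in control livers, with the adjusted p closest to the threshold (0.0446, limma).

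**Figure D1:**
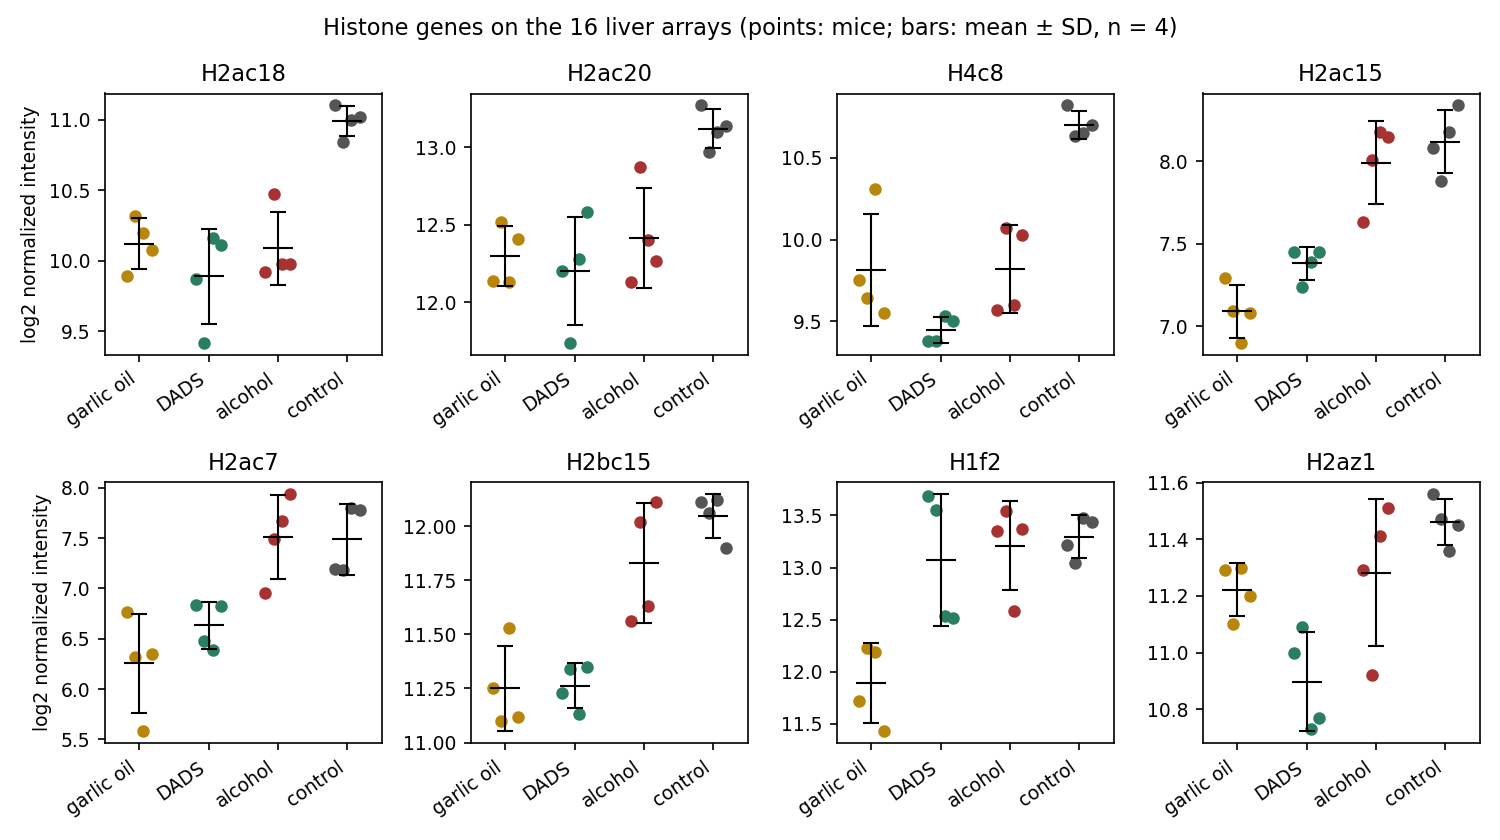
Log2 normalized intensity of 8 histone genes on each of the 16 arrays, with garlic oil, DADS, alcohol and control mice from left to right, points for mice and bars for the mean ± SD (n = 4). H2ac18, H2ac20 and H4c8 stood lower in all 3 ethanol-fed groups than in control, while H2ac15, H2ac7 and H2bc15 stood lowest in the garlic oil and DADS groups and H1f2 in the garlic oil group.

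None of the 7 H2A genes of chromosome 13, the 8 H2B genes, the 5 H3 genes or H1f2 passed the test in alcohol against control in limma, and at an unadjusted p under 0.05 there were 2 among them, H2ac8 higher and H3c6 lower. The 34 cluster genes had a median change of -0.17, and 25 of 34 lay below 0, while the 3 replacement genes had a median of -0.17 and all 8386 genes of -0.01 (log2). The groups did not overlap for 8 members, all lower in alcohol, against 6.32% of all genes, and 0 were higher, against 6.34%. Alcohol and control shared a chip, and a fit of these 8 arrays alone called H2ac18, H2ac20, H2ac21 and H4c8, with H4c11 at an adjusted p of 0.066 in limma. The count was 8 without alcohol replicate 2, 3 without alcohol replicate 1, alcohol replicate 4, control replicate 2 or control replicate 3, and 2 without alcohol replicate 3 or control replicate 1. The calls lost without alcohol replicate 1 were H2ac20 (-0.61, adjusted p = 0.0988, limma) and H4c11 (-0.47, adjusted p = 0.103, limma). H2ac18 and H4c8 were called under all 26 alternatives tried.

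With garlic oil on the ethanol diet 9 members, all cluster genes, fell against alcohol alone and 0 rose, where 2.02% of all genes changed, 1.32% fell and 0.692% rose. At an unadjusted p under 0.05, 0 members were higher and 18 lower in limma. All 9 lay on chromosome 13. They were 5 of the 7 H2A genes measured there (H2ac7, H2ac10, H2ac15, H2ac22 and H2ac24), 3 of 8 H2B genes (H2bc11, H2bc14 and H2bc15) and H1f2, formerly Hist1h1c, a linker histone gene. None of the 3 H2A genes of chromosome 3, the 5 H3 genes and the 10 H4 genes passed the test in limma, with 5 of these 18 lower at an unadjusted p under 0.05.

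H2ac15 (formerly Hist1h2ak) had 7.29, 7.09, 6.90 and 7.08 in garlic oil livers, against 7.63, 8.01, 8.18 and 8.15 in alcohol livers (log2 intensity). No garlic oil mouse reached the lowest alcohol mouse, and the difference was -0.90 ± 0.14 (SE), 1.87-fold lower with garlic oil (adjusted p = 0.00494, limma). H1f2 had 11.72, 12.23, 12.19 and 11.43 in garlic oil livers, against 13.35, 13.54, 12.58 and 13.37 in alcohol livers. Its difference was the largest of the measured members in this comparison, -1.32 ± 0.27 (SE), 2.49-fold lower with garlic oil (adjusted p = 0.0238, limma). Its call was lost without alcohol replicate 1 (-1.27, adjusted p = 0.0517, limma), and also without alcohol replicate 2 or garlic oil replicate 4 and with array weights. H2ac7, formerly Hist1h2ad, had 6.77, 6.32, 5.58 and 6.35 in garlic oil livers, against 6.95, 7.49, 7.67 and 7.94 in alcohol livers, a difference of -1.26 ± 0.24 (SE) with an adjusted p of 0.0153 in limma. Its probe was detected on 3 of 4 garlic oil arrays, so its low values there lie near background.

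The other H2A genes fell by 0.90 (H2ac24), 0.99 (H2ac22) and 0.73 (H2ac10) on the log2 scale, with adjusted p between 0.0103 and 0.0407 in limma. H2ac10 is the only one of the 9 whose groups overlapped, with garlic oil at up to 7.85 and alcohol as low as 7.85. The 3 H2B genes fell by less, 0.62 (H2bc11), 0.59 (H2bc14) and 0.58 (H2bc15), with adjusted p between 0.0386 and 0.0425. H2bc15 had 11.25, 11.10, 11.53 and 11.12 in garlic oil livers, against 11.56, 12.02, 11.63 and 12.11 in alcohol livers, and the gap between the groups was small. Without overlap 14 members were lower with garlic oil, against 5.89% of all genes, and 0 were higher, against 3.15%. Among the 14 was H4c2, detected on 0 of 4 garlic oil and 1 of 4 alcohol arrays, so its values lie near background.

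The cluster genes had a median change of -0.39 with garlic oil against alcohol, with 29 of 34 below 0, and the replacement genes of -0.06, against -0.03 over all genes (log2). When arrays were scaled to 1 median in place of quantiles, all genes shifted to a median of 0.07 and the cluster genes had a median -0.389 relative to it, with H1f2, H2ac7, H2ac15 and H2ac24 called. In the authors' deposited normalized table the same 4 genes were called. Fitted on the 8 arrays of these groups alone, 2 were called (H1f2 and H2ac15) where 0.31% of all genes were. The count was 8 without alcohol replicate 1, 5 without alcohol replicate 3, 4 without garlic oil replicate 2, alcohol replicate 4 or control replicates 2, 3 or 4, and 3 without garlic oil replicate 4 or alcohol replicate 2. H2ac15 was called under all 26 alternatives. Of the 5 measured erythroid markers 3 rose with garlic oil against alcohol, among them Hba-a1 by 1.17, and 0 of 9 hepatocyte markers changed (1 higher at an unadjusted p under 0.05). Another of the 3, Slc4a1, was detected on 4 of 4 garlic oil and 1 of 4 alcohol arrays. Slc4a1 passed the detection filter only through the garlic oil group, where it was high, so its calls are descriptions only. The part of these cells in the histone result was not tested.

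With DADS on the ethanol diet 4 members fell against alcohol alone and 0 rose, where 2.84% of all genes changed, 1.61% fell and 1.23% rose. They were the H2A genes H2ac15 and H2ac24 and the H2B genes H2bc14 and H2bc15, and at an unadjusted p under 0.05 there were 1 higher and 13 lower members in limma. H2ac15 had 7.45, 7.24, 7.39 and 7.45 in DADS livers, against 7.63, 8.01, 8.18 and 8.15 in alcohol livers, a difference of -0.61 ± 0.14 (SE) with an adjusted p of 0.0274 in limma. H2bc15 had 11.23, 11.34, 11.13 and 11.35 in DADS livers, against 11.56, 12.02, 11.63 and 12.11 in alcohol livers, a difference of -0.57 ± 0.14 (SE; adjusted p = 0.0383, limma). For all 4 genes the groups did not overlap, with the closest alcohol values at replicate 1.

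The H2A genes had a median change of -0.60 with DADS against alcohol and all 10 lay below 0, the H2B genes of -0.41 with 7 of 8 below 0, and the H3 and H4 genes of -0.01 and -0.07 (log2). H1f2 had 13.69, 13.55, 12.54 and 12.52 in DADS livers and did not pass the test (difference -0.13 ± 0.27 SE, adjusted p = 0.852, limma), and the DADS mice fell into a higher and a lower pair. Without overlap 8 members were lower with DADS, against 4.52% of all genes, and 1 was higher, against 4.65%. The cluster genes as a whole had a median of -0.20, which became 0.000 with median scaling, where all genes moved to 0.176, so that the cluster genes stood at -0.176 relative to all genes in place of -0.216.

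Under median scaling 0 members were lower and 1 (H3c14) higher with DADS against alcohol, with 3 higher and 7 lower at an unadjusted p under 0.05. In the fit of the 8 arrays alone 0 were called in limma (13 lower at an unadjusted p under 0.05), where 0.727% of all genes were. The count was 7 without alcohol replicate 1 or garlic oil replicate 3 and 1 without DADS replicate 4, alcohol replicates 2 or 3 or control replicates 2 or 3. Without alcohol replicate 2 that 1 call was the replacement gene H2az1, and 0 of the 4 cluster genes were called. The count was 0 without DADS replicates 2 or 3 or alcohol replicate 4 (10 to 12 lower at an unadjusted p under 0.05). In the same comparison 7 of the 9 measured Kupffer cell and macrophage markers fell, with a list median of -0.87. Without alcohol replicate 1 the calls of Adgre1, Clec4f, Vsig4, Timd4, C1qa and C1qb were lost (adjusted p between 0.0546 and 0.0732, limma). C1qc was still called without it (adjusted p = 0.0311, limma). Array medians of that list were between 8.70 and 10.26 in DADS livers and between 9.82 and 10.43 in alcohol livers. Also called lower were Alas2 (-1.52) of 5 erythroid, Lyve1 (-1.16) of 9 endothelial and Cd79b (-0.92) of 2 lymphocyte markers. In these lists 1 erythroid and 2 endothelial markers lay above 0. The Cd79b call was lost without alcohol replicate 1 (adjusted p = 0.0921, limma). The part of all these cells in the histone result was not tested.

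**Figure D2:**
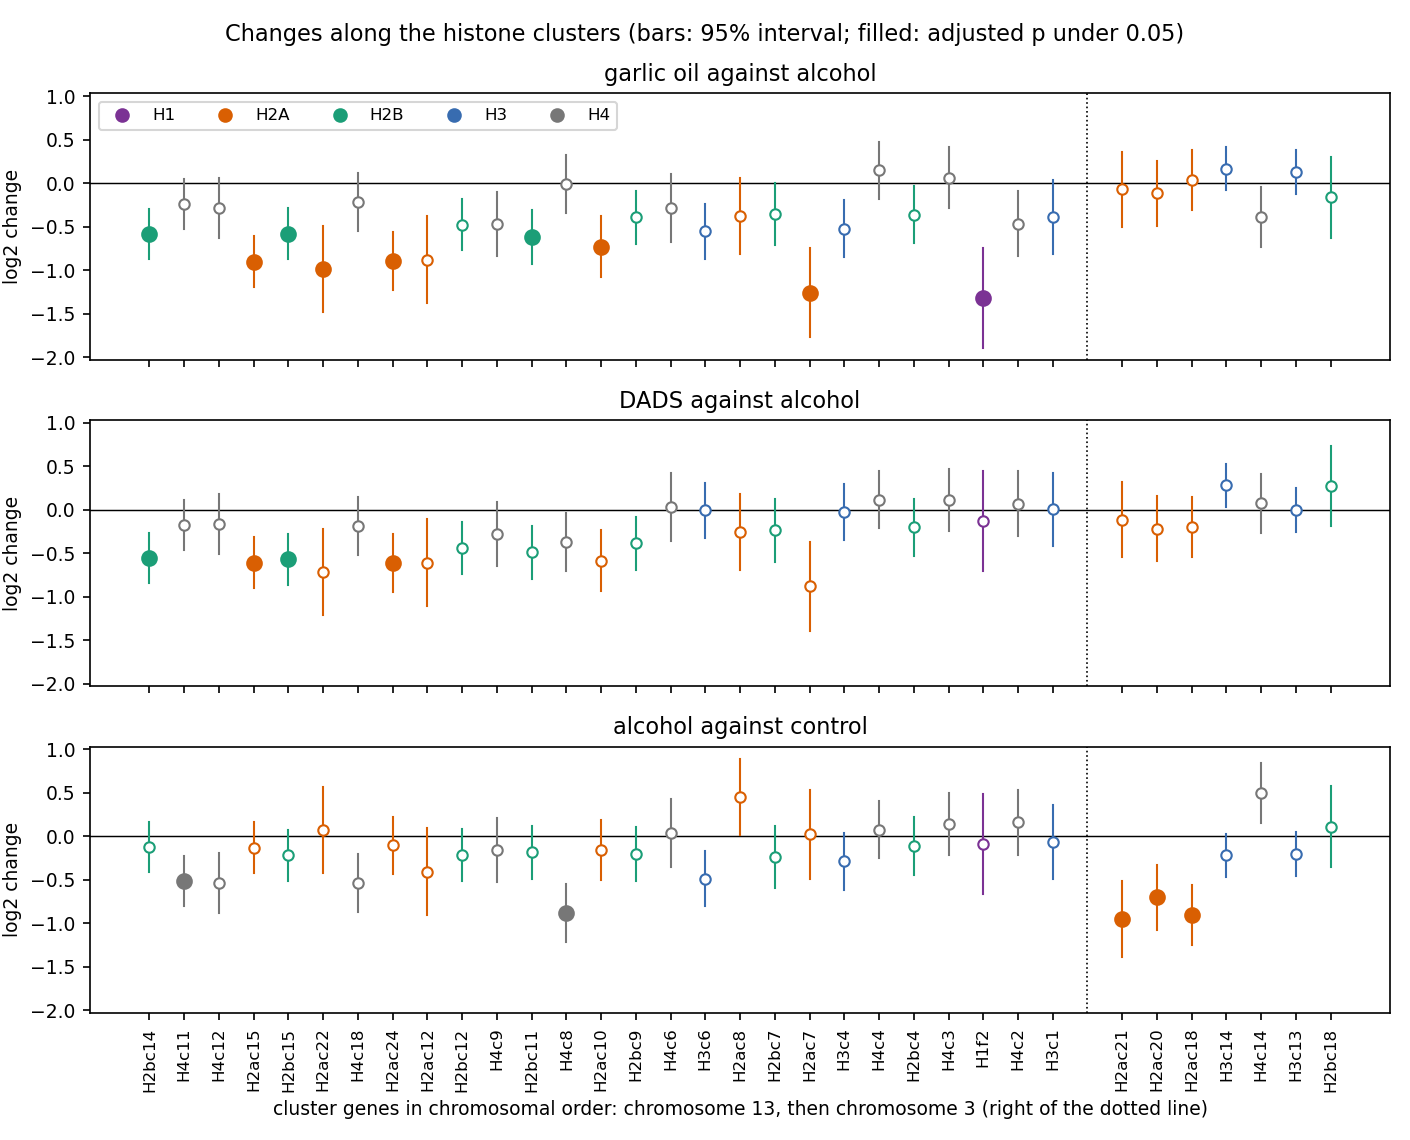
Log2 change of the 34 measured cluster genes in chromosomal order, with 95% intervals, colours for the histone families and filled points for an adjusted p under 0.05 (limma). Against alcohol, the filled points of garlic oil and DADS lie on chromosome 13 (left of the dotted line), while the 3 largest falls of H2A genes in alcohol against control lie on chromosome 3.

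Between the 2 garlic preparations 1 member differed, H1f2, which was lower with garlic oil, while 1.85% of all genes differed, 1.11% were lower and 0.739% higher. At an unadjusted p under 0.05, 2 members were higher and 6 lower with garlic oil in limma. H1f2 had 11.43 to 12.23 in garlic oil livers and 12.52 to 13.69 in DADS livers, so every garlic oil mouse was below every DADS mouse (difference -1.18 ± 0.27 SE, adjusted p = 0.0335, limma). The 95% interval of that difference ran from -1.76 to -0.61. The agents were given at unlike doses and one is a mixture, and both groups lay on 1 chip. In the fit of these 8 arrays alone H1f2 had an adjusted p of 0.111 in limma and 0 members were called (2 higher and 7 lower at an unadjusted p under 0.05). The count was also 0 without DADS replicates 1 or 2 or garlic oil replicates 1 or 4, and 2 without alcohol replicate 2, which added H3c6. Without overlap 4 members were lower and 2 higher with garlic oil, against 5.4% and 2.65% of all genes. Among the 4 was H4c2, detected on 0 of 4 garlic oil and 3 of 4 DADS arrays. H4c2 passed the detection filter only through the DADS group, where it was high, so its place in this count is a description only. In this comparison 4 of 9 Kupffer cell and macrophage markers and 4 of 5 erythroid markers were called higher with garlic oil, and their part in the H1f2 difference was not tested. The erythroid count holds Slc4a1, detected on 4 of 4 garlic oil and 0 of 4 DADS arrays, whose call is a description only.

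Of the 4 genes that fell with both agents against alcohol, 0 passed the test between the agents. H2ac15 differed by -0.29 between garlic oil and DADS (unadjusted p = 0.0484, adjusted p = 0.293, limma), and H2bc15 by -0.01, with a 95% interval from -0.30 to 0.28 (log2). Missing the threshold does not show that the agents act alike. The cluster genes had a median difference of -0.12 and the replacement genes of 0.32, against -0.03 over all genes.

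Against the control diet more members were called in both garlic groups, which share the control arrays with each other and with the alcohol comparison. With garlic oil 24 members fell and 0 rose (0 higher and 25 lower at an unadjusted p under 0.05 in limma), where 17.9% of all genes changed, 9.29% fell and 8.56% rose. They were H1f2, 9 of 10 H2A genes, 7 of 8 H2B genes, 2 of 5 H3 genes (H3c4 and H3c6) and 5 of 10 H4 genes. With DADS 19 members fell and 1 rose, where 15.9% of all genes changed, 7.44% fell and 8.48% rose. The falls were 8 of 10 H2A genes, 5 of 8 H2B genes, H3c6, 4 of 10 H4 genes and the replacement gene H2az1, and the rise was H4c14.

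H4c8 with DADS had the smallest adjusted p of these comparisons. It had 9.38, 9.38, 9.53 and 9.50 in DADS livers, against 10.82, 10.63, 10.65 and 10.70 in control livers, a difference of -1.25 ± 0.16 (SE), 2.38-fold lower with DADS (adjusted p = 8.02e-05, limma). With garlic oil it had 9.75, 9.64, 10.31 and 9.55, a difference of -0.89 ± 0.16 from control (SE; adjusted p = 0.00129, limma), and replicate 3 stood above the other garlic oil mice. H3c6, an H3 gene of chromosome 13, averaged 7.40 ± 0.11 in garlic oil livers and 8.45 ± 0.15 in control livers (SD, n = 4 each), a difference of -1.04 with an adjusted p of 0.000245 in limma. H1f2 was 2.64-fold lower with garlic oil than in control (difference -1.40 ± 0.28 SE, adjusted p = 0.00228, limma), but with DADS the difference of -0.22 did not pass the test.

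The groups did not overlap for 26 members lower with garlic oil than in control, against 13.5% of all genes, and for 22 lower with DADS, against 11%, while 0 were higher with garlic oil (10.6% of all genes) or with DADS (11.8%). The 26 include H4c2, detected on 0 of 4 garlic oil and 1 of 4 control arrays, so its values lie near background. The counts of calls stayed between 21 and 24 for garlic oil and between 17 and 22 for DADS under all 26 alternatives. With median scaling the DADS calls were 3 higher (H2bc18, H4c3 and H4c14) and 14 lower. Against control 7 of 9 Kupffer cell and macrophage markers and 2 of 5 erythroid markers, Hba-a1 (-0.85) and Alas2 (-1.59), fell with DADS and 1 of 4 neutrophil markers rose. In these lists 1 Kupffer cell and macrophage and 1 erythroid marker lay above 0 with DADS, and 2 neutrophil markers lay below 0. With garlic oil 3 of 9 hepatocyte, 3 of 5 erythroid, 2 of 4 neutrophil, 1 of 7 stellate cell and 1 of 9 Kupffer cell and macrophage markers rose. Below 0 with garlic oil lay 4 hepatocyte, 2 erythroid, 2 neutrophil, 2 stellate cell and 5 Kupffer cell and macrophage markers. Of the neutrophil markers 1 was lower at an unadjusted p under 0.05 (limma). The erythroid count holds Slc4a1, detected on 4 of 4 garlic oil and 0 of 4 control arrays, so its call is a description only. Stab2, an endothelial marker, fell with garlic oil (-0.44) and with DADS (-0.56), as 1 of 9 endothelial markers. Most of that list went the other way: 7 of 9 lay above 0 with garlic oil (median 0.16) and 6 of 9 with DADS (median 0.03). The part of these cells in the counts was not tested. H4c14, the H4 gene of chromosome 3, averaged 6.57 in DADS livers and 6.00 in control livers, but its dim probe was detected on 2 of 4 control arrays, the groups overlapped, and its call was lost in the fit of these 8 arrays alone.

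**Figure D3:**
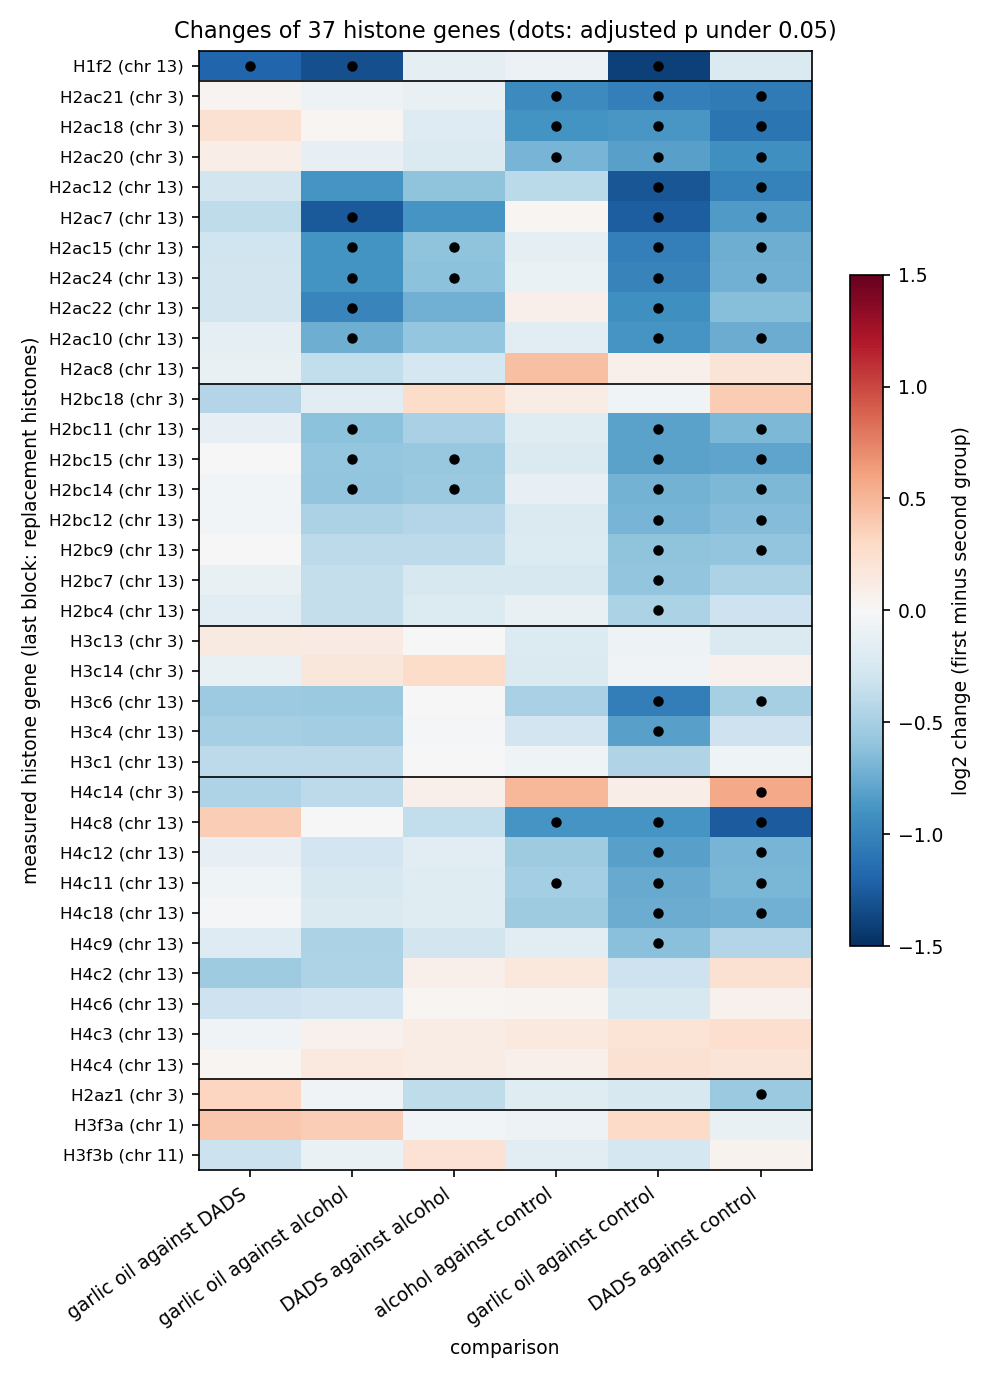
Log2 change of the 37 measured histone genes (rows, grouped by family, replacement histones last) in 6 comparisons (columns), with dots for an adjusted p under 0.05 (limma). The 2 columns against control hold 24 and 20 dots and the column of garlic oil against DADS holds 1.

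Over the 4 groups the group mean was highest in control for 24 of 34 cluster genes and lowest with garlic oil for 24 of 34, with DADS lowest for 5, control for 4 and alcohol for 1. This ranking was not made over all genes, so these counts have no share to stand beside. Of all 8386 genes, 4660 were lower with garlic oil than in control, 4540 lower than in alcohol and 4657 lower than with DADS. Taken over the 34 genes, the median difference of each array from the control mean was -0.68, -0.74, -0.53 and -0.80 for garlic oil mice, -0.32, -0.59, -0.74 and -0.57 for DADS mice and -0.46, -0.01, -0.26 and 0.04 for alcohol mice, against 0.11, -0.11, 0 and 0.03 for control mice (log2). All garlic oil and DADS arrays thus lay below all control arrays, and 2 alcohol arrays, replicates 2 and 4, lay within the control range. The same median over all 8386 genes stayed between -0.07 and 0.03.

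**Figure D4:**
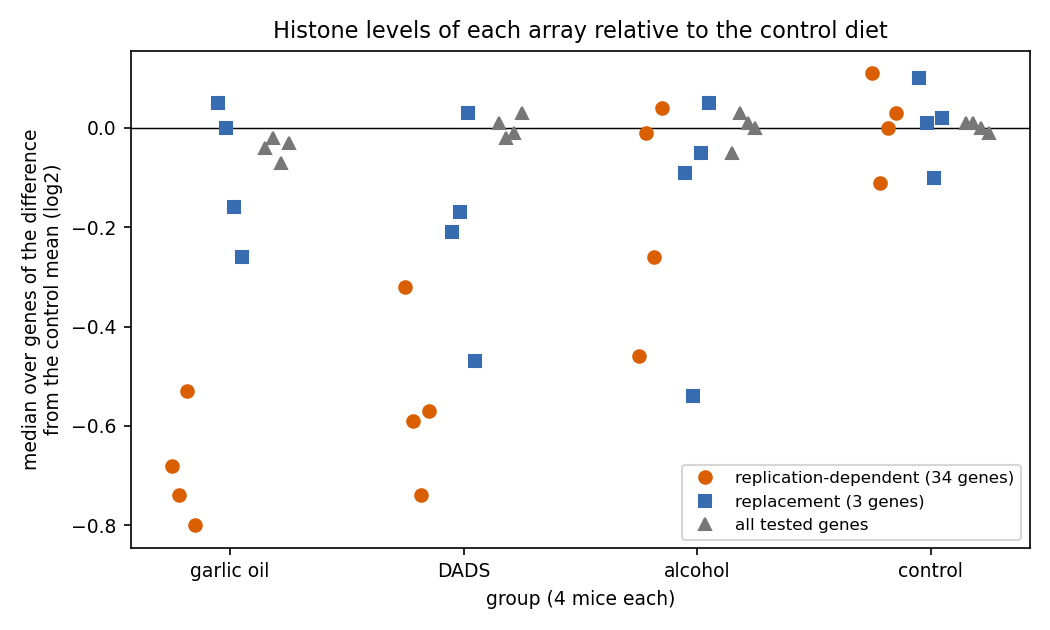
Median over genes of the difference between each array and the control mean (log2), for 34 cluster genes, 3 replacement genes and all 8386 genes, with garlic oil, DADS, alcohol and control mice from left to right and 4 points a group. The cluster genes lay between -0.80 and -0.53 in garlic oil mice and between -0.11 and 0.11 in control mice, while the medians over all genes stayed near 0.

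Of the replacement histones 1 was called, in 1 comparison. H2az1, which encodes H2A.Z, had 11.00, 11.09, 10.73 and 10.77 in DADS livers, against 11.56, 11.47, 11.36 and 11.45 in control livers, without overlap (difference -0.56 ± 0.13 SE, adjusted p = 0.00887, limma). With median scaling, which moved all genes by 0.18 in that comparison, its difference was -0.36 and it was not called (adjusted p = 0.114, limma). With garlic oil it averaged 11.22 ± 0.10, against 11.28 ± 0.26 in alcohol livers and 11.46 ± 0.08 in control livers (SD, n = 4 each), and neither difference passed the test. Garlic oil mice (11.10 to 11.30) nevertheless lay below all control mice (11.36 to 11.56) and above all DADS mice (at most 11.09). In DADS against alcohol H2az1 was lower by 0.38 at an unadjusted p under 0.05 (limma), with overlap. H3f3a and H3f3b, the 2 genes of H3.3, passed no test in any of the 6 comparisons (smallest adjusted p 0.327 and 0.335, limma). H3f3a ranged from 10.71 to 11.27 in garlic oil, from 10.16 to 10.80 in DADS, from 9.95 to 11.08 in alcohol and from 10.49 to 10.73 in control livers. H3f3b ranged from 11.34 to 12.17 in garlic oil, from 11.95 to 12.45 in DADS, from 11.45 to 12.18 in alcohol and from 12.05 to 12.16 in control livers, and the groups overlapped for both genes. With 3 replacement genes measured, the difference between the classes was not tested.

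Mice of a group also differed in ways that many H2A and H2B genes of chromosome 13 shared. Of its 7 H2B genes, 6 were highest in garlic oil replicate 3 among garlic oil mice and H2bc4 was tied there with replicate 1 (14.21 in both), while 6 of the 7 H2A genes of chromosome 13 were lowest in that mouse. In alcohol mice, replicate 1, the array with the high pancreatic acinar markers, was lowest for 6 of 7 H2A and 6 of 7 H2B genes. Alcohol replicate 4 was highest for 5 of 7 and for 7 of 7. In control mice, replicate 4 was lowest for 6 of 7 H2B genes and highest for 4 of 7 H2A genes. The 3 H2A genes of chromosome 3 went otherwise in part: garlic oil replicate 2 and alcohol replicate 2 were highest for 3 of 3, and garlic oil replicate 3 was lowest for 1 of 3. Alcohol replicate 1 was again lowest, for 2 of 3. Of the 9 H4 genes of chromosome 13, 6 were highest and 2 lowest in garlic oil replicate 3. The part of probes that read several near-identical genes was not tested.

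Some H2A and H2B genes stand head to head and share their promoter. Of 6 such pairs with overlapping windows, 3 had both genes measured: H2ac15 with H2bc15 (263 bases shared), H2ac12 with H2bc12 (277 bases) and H2ac7 with H2bc7 (273 bases). Garlic oil against alcohol gave -0.90 and -0.58 for H2ac15 and H2bc15, -0.88 and -0.48 for H2ac12 and H2bc12, and -1.26 and -0.35 for H2ac7 and H2bc7 (log2), of which H2ac15, H2bc15 and H2ac7 passed the test. In each pair the H2A gene was lowest and the H2B gene highest in garlic oil replicate 3 among garlic oil mice, with 6.90 and 11.53 in H2ac15 and H2bc15, 5.44 and 11.25 in H2ac12 and H2bc12, and 5.58 and 13.15 in H2ac7 and H2bc7. H2ac12 and H2ac7 were each detected on 3 of 4 garlic oil arrays, so their low values there lie near background.

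Of the 37 measured genes 2 had a second passing probe. H2bc4, formerly Hist1h2bc, averaged 14.04 in garlic oil livers and 14.51 in control livers (adjusted p = 0.0445, limma), its only call, and its second probe did not pass (difference -0.23, adjusted p = 0.42 over all probes). The 2 probes of H3c14 disagreed. The brighter one averaged 10.83 in garlic oil livers and 10.88 in control livers, while the dimmer one averaged 5.83, with 2 of 4 arrays detected, against 7.33 in control livers (adjusted p = 0.000509 over all probes, limma). Fitted probe by probe, the 39 member probes gave 9 called in garlic oil against alcohol (1.42% of all probes), 4 in DADS against alcohol (2.55%), 5 in alcohol against control (3.27%) and 1 in garlic oil against DADS (1.62%). Against control they gave 25 with garlic oil (17.7%) and 21 with DADS (16%).

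Of the H4 genes, H4c8, H4c11, H4c12, H4c18 and H4c9 fell with garlic oil against control, while H4c2, H4c3, H4c4, H4c6 and H4c14 did not pass the test in that comparison. H4c3 averaged 7.94 in garlic oil livers and 7.74 in control livers, and H4c4 averaged 7.12 in garlic oil livers and 6.89 in control livers. H2ac8 and H2bc18 were the H2A and H2B genes that passed no test in any comparison (H2ac8 smallest unadjusted p 0.0418, in alcohol against control). H4c2 and H3c1 were detected on 5 and 10 of 16 arrays and passed no test.

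Other histone genes on the arrays lay outside the symbol rule. Cenpa, the centromeric H3 variant, averaged 9.04 with garlic oil and 9.10 with DADS, against 9.94 in alcohol livers, and fell against alcohol with both (-0.90 and -0.84, adjusted p 0.0121 and 0.0149, limma). Macroh2a1 fell against control with garlic oil and DADS (-0.54 and -0.51, adjusted p 0.0257 and 0.0352). H2ax, H2aj and H4f16 passed no test in any comparison (limma), with H2ax lower at an unadjusted p under 0.05 with each agent against alcohol and H4f16 higher with DADS.

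Of 24 annotated genes for histone mRNA synthesis and 3' processing 11 were measured, and Slbp, which binds the stem-loop, was not. E2f1, a transcription factor of S phase genes, averaged 6.28 with garlic oil and 5.93 with DADS (3 of 4 DADS arrays detected), against 6.96 in alcohol livers, and fell against alcohol with both (adjusted p 0.038 and 0.003, limma). It rose in alcohol livers against control livers, where it averaged 6.31 (adjusted p = 0.0257). Without alcohol replicate 1 its calls in garlic oil against alcohol (adjusted p = 0.0719) and alcohol against control (adjusted p = 0.0631) were lost, and over the 26 alternatives they were made in 15 and 20. Tut7, a uridylyltransferase that takes part in histone mRNA decay, fell against control with both agents, by 0.57 with garlic oil and 0.45 with DADS. Of 24 measured chaperone and exchange genes, Hjurp, the chaperone of Cenpa, was lower with garlic oil than with DADS (-0.66, adjusted p = 0.0331), and Nasp, an H3 and H4 chaperone, rose with garlic oil against control (0.71, adjusted p = 0.0175).

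Genes of DNA replication and division were measured for 33 of 51. In alcohol livers 2 rose against control and 0 fell (10 higher and 2 lower at an unadjusted p under 0.05 in limma), with a list median of 0.21 against -0.01 over all genes. They were Mcm6, a subunit of the replicative helicase (0.91, adjusted p = 0.015), and Cdc20. Cdc20 was detected on 4 of 4 alcohol, 0 of 4 control, 1 of 4 DADS and 1 of 4 garlic oil arrays. It passed the detection filter only through the alcohol group, where it was high, so its calls in this list are descriptions only. With garlic oil against alcohol 5 fell and 0 rose (1 higher and 12 lower at an unadjusted p under 0.05), among them Plk1, Mcm4 (-0.80), Cdc20 and Fen1 (-0.57), with a list median of -0.29. Plk1 was detected on 0 of 4 garlic oil and 3 of 4 alcohol arrays and Cdc20 on 1 of 4 and 4 of 4. The garlic oil values of Plk1 and Cdc20 thus lie near background. Of the 26 alternatives Fen1 was called in 10, Pold1 in 7 and Mcm4 in 23, and of the 25 that measured them Cdc20 was called in 16 and Plk1 in 24. With DADS against alcohol Mcm5 (-0.78) and Cdc20 fell and 0 rose (1 higher and 7 lower at an unadjusted p under 0.05), with a list median of -0.17. Against control Mcm10, a replication initiation factor, fell with garlic oil (-1.21) and DADS (-1.05). Dut, Pold1 and Plk1 also fell with garlic oil and 0 rose (4 higher and 6 lower at an unadjusted p under 0.05), with a list median of -0.10, and with DADS Mcm2 and Mcm6 (0.75) rose, with a list median of 0.04. Mcm2 was detected on 3 of 4 DADS and 0 of 4 control arrays, so its control values lie near background. Fen1, Pold1 and Mcm5 lost their calls against alcohol without alcohol replicate 1 (adjusted p 0.0601, 0.0702 and 0.0701, limma). Without alcohol replicate 1 the cluster histones had a median of -0.08 in alcohol against control, -0.49 in garlic oil against alcohol and -0.29 in DADS against alcohol, and the replacement genes had medians of -0.19, -0.06 and 0.13.

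Cell cycle inhibitors were measured for 10 of 15. Cdkn1a, which halts the cycle before S phase, averaged 8.60 in alcohol livers, against 5.80 in control livers where 2 of 4 arrays detected it (adjusted p = 0.00677, limma). It averaged 8.80 with garlic oil and also rose against control there (adjusted p = 0.00124). Gadd45a, a stress gene, averaged 8.92 with DADS, against 7.34 in alcohol livers (adjusted p = 0.0267), and 7.34 in alcohol livers against 8.80 in control livers (adjusted p = 0.032), and both calls were lost without alcohol replicate 1 (adjusted p 0.0583 and 0.0689, limma).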

How the data were processed

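Liver RNA of 16 mice was read on Illumina BeadChips. The deposited files hold a raw probe intensity and a detection p-value for each array, not background-corrected or normalized per the file headers, and a table of normalized intensity made by the authors on a linear scale by a method not given in the sources used here. The submitters' processing notes name GenomeStudio, lumi and limma without versions. The raw intensities were corrected and quantile-normalized with neqc (offset 16) in R 4.3.3 and limma 3.58.1. A probe was kept when 4 or more of the 16 arrays detected it at p under 0.05 (11938 of 25697), and the brightest stood for its gene. Of 25697 probes 1719 had no single gene name. One limma fit with 4 group means and 12 residual degrees of freedom gave log2 differences, and p-values were adjusted (Benjamini-Hochberg) over 8386 genes. Named were the members called in any comparison and common histone genes fixed by name, and of each list up to 4 called genes a comparison. Members and lists were chosen with earlier results of these data known. Deviations of arrays with the same replicate number correlated at between -0.367 and 0.404. Their median was -0.006, against -0.015 for arrays with other numbers, and the numbers were not taken as pairs. The fit was tested on simulated data. The number of arrays limits the precision.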

Additional observations from a re-analysis of the deposited data

Results flagged for a closer look

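Of 112 groups of 4 mice examined, 2 held a mouse far from the others, where chance gives about 1 in 20. H2ac18 was 10.47 in alcohol replicate 2, and the nearest alcohol mouse was at 9.98, a gap of 0.883 of the group's range, above Dixon's 95% critical value. H2bc12 was 11.58 in control replicate 4, and the nearest control mouse was at 11.84, a gap of 0.875 of the range.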

How the results depend on the processing

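Of 63 called gene results, 38 held under all 26 alternatives, 25 were lost under at least 1 and 0 reversed. Lost under at least 13 were H2ac22, H2bc11 and H2bc15 in garlic oil against alcohol, H2ac24 and H2bc15 in DADS against alcohol and H4c11 in alcohol against control. The cause of the losses was not tested. In alcohol against control the count of 5 histone genes became 8 with array weights. In DADS against alcohol the count of 4 became 1 with median scaling, 2 with no filter on dim probes and 0 in the fit of the compared arrays alone. In garlic oil against alcohol the count of 9 became 4 with median scaling, 4 in the authors' normalized table and 2 in the compared arrays alone. In garlic oil against DADS the count of 1 became 3 with median scaling and 0 in the authors' table, with no filter and in the compared arrays alone (2 higher and 7 or 8 lower at an unadjusted p under 0.05, limma). Median scaling moved the cluster median to 0 in DADS against alcohol and to -0.591 in garlic oil against control, and the replacement median to 0.183 in DADS against alcohol, 0.12 in garlic oil against alcohol, 0.104 in DADS against control and -0.088 in garlic oil against control. With no filter the cluster median was -0.24 in garlic oil against alcohol, -0.185 in DADS against control and -0.307 in garlic oil against control, and the replacement median was -0.007 in garlic oil against DADS and -0.064 in garlic oil against control. Leaving out 1 mouse gave 2 to 8 calls in alcohol against control, 0 to 7 in DADS against alcohol, 3 to 9 in garlic oil against alcohol and 0 to 2 in garlic oil against DADS, and replacement medians from -0.273 to -0.097 in garlic oil against control, -0.214 to -0.001 in DADS against control, -0.221 to -0.057 in alcohol against control, -0.242 to 0.134 in DADS against alcohol and -0.081 to 0.072 in garlic oil against alcohol, so the sign of the last 2 is not settled. The cluster median in DADS against alcohol lay between -0.285 (without alcohol replicate 1) and -0.079 (without alcohol replicate 2). With the replicate block the counts were 3 in alcohol against control, 1 in DADS against alcohol and 6 in garlic oil against alcohol. They were 19 in DADS against control and 23 in garlic oil against control. The labels do not say that the replicate numbers pair the mice. As 9 of 16 arrays correlated best with their own number, a partial pairing is not settled. Over all genes the called count was 669 with array weights against 300 in alcohol against control. In DADS against alcohol it was 775 with median scaling, 136 with no filter and 61 in the compared arrays alone, against 238. In garlic oil against alcohol it was 83 in the authors' table, 96 with array weights, 112 with the replicate block and 26 in the compared arrays alone, against 169. In garlic oil against DADS it was 237 with median scaling and 39 in the compared arrays alone, against 155. Leaving out 1 mouse gave all-gene counts as low as 132, 97, 44 and 72 in these 4 comparisons, and 879 and 903 against control (DADS and garlic oil). Median scaling moved the share of higher calls to 87.2% from 43.3% in DADS against alcohol, 73.4% from 34.3% in garlic oil against alcohol, 19.4% from 40% in garlic oil against DADS, 87.3% from 53.3% in DADS against control and 74.6% from 48% in garlic oil against control. Dim probes near background limit what can be said of the genes not measured.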
